A study of Mus musculus with 12 samples.

Results

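The genes described here are 9 globin and red cell genes, chosen by name as a measure of the blood RNA in each library: the adult alpha-globins Hba-a1 and Hba-a2, the adult beta-globins Hbb-bs and Hbb-bt, the beta-like globins Hbb-bh1 and Hbb-bh2, and Alas2, Bpgm and Slc4a1. They are 9 of the 55401 gene IDs in each count table. The libraries came from adult mouse hearts of 2 genotypes, wild type (WT) and Rpl3l-/- (KO), which lacks a ribosomal protein paralog found in heart and skeletal muscle. Each genotype was measured in 2 fractions with 3 biological replicates: Input, the poly(A) RNA of a heart homogenate, and IP, the poly(A) RNA that came down with ribosomes on an anti-HA antibody. The hearts of the IP libraries were treated with cycloheximide, which stalls translating ribosomes, when they were excised, and their RNA was purified on RNeasy columns, whereas Input RNA was purified with TRIzol. Fraction, cycloheximide treatment and purification therefore cannot be told apart. Strain, sex and exact age, the cells that carry the HA tag, and whether the hearts were perfused before homogenisation were not given in the labels.

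Red cells carry oxygen on hemoglobin, a tetramer of alpha-like and beta-like chains, each with a heme group. Mammalian red cells lose their nucleus, but young ones, the reticulocytes, still hold ribosomes and globin mRNA, so whole-organ RNA contains globin transcripts from the blood in its vessels. The alpha-like and beta-like genes lie in separate clusters, and within a cluster embryonic genes are replaced by adult ones during development. Alas2 encodes the erythroid form of the enzyme that starts heme synthesis. Bpgm makes 2,3-bisphosphoglycerate, which lowers the oxygen affinity of hemoglobin. Slc4a1 encodes band 3, the anion exchanger of the red cell membrane.

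In the GRCm38 annotation (GENCODE M21), the 4 beta-like genes lie on the minus strand within 30.6 kb of chromosome 7: Hbb-bt at chr7:103812524-103813996, Hbb-bs at chr7:103826534-103828096, Hbb-bh2 at chr7:103839124-103840520 and Hbb-bh1 at chr7:103841637-103843164. The alpha-globins lie on the plus strand within 13.8 kb of chromosome 11, Hba-a1 at chr11:32283511-32284465 and Hba-a2 at chr11:32296489-32297298. Alas2 is at chrX:150547375-150570638 (plus strand), Bpgm at chr6:34476207-34505613 (plus strand) and Slc4a1 at chr11:102348824-102366203 (minus strand). All 9 are annotated as protein-coding.

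How far reads of one globin gene can be told from those of its copy depends on the sequences, so a 90-base coding stretch is shown for each globin gene, 5′ to 3′ on the coding strand, taken from the GENCODE M21 transcripts. Capitals mark the bases that differ from Hbb-bs in the beta-like genes (coding bases 328 to 417, counted from the A of the start codon) and from Hba-a1 in the alpha pair (coding bases 292 to 381).
Hbb-bs: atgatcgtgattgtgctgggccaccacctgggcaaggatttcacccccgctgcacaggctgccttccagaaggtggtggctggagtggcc
Hbb-bt: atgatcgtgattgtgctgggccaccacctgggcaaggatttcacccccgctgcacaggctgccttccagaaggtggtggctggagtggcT
Hbb-bh1: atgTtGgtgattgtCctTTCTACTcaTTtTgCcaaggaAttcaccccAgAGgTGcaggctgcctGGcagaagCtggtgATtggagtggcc
Hbb-bh2: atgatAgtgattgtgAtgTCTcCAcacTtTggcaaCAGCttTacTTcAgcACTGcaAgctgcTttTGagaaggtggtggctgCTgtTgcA
Hba-a1: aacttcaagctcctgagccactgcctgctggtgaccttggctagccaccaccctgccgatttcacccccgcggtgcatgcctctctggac
Hba-a2: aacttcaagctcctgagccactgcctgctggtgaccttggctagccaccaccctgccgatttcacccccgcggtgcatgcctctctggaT

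Hbb-bs and Hbb-bt differed at 1 of 441 coding bases, C417T (Hbb-bs first), the last base shown. Beyond the stop codon they were less alike: 95 of 128 aligned 3′ UTR bases were identical. Hba-a1 and Hba-a2 differed at 1 of 426 coding bases, C381T (Hba-a1 first), and all 74 aligned bases of their annotated 3′ UTRs were identical. Reads of the alpha pair, and those of the adult beta pair that miss the 3′ UTR, carry little that assigns them to one copy, and the rule by which such reads were counted was not stated in the labels. Counts of Hba-a1 against Hba-a2, and of Hbb-bs against Hbb-bt, are therefore uncertain. Sums over a pair are unaffected by how it was split only if each such read was counted once, for either copy. If such reads were left out, the sums would be too low. The adult globin share of a library and the alpha share of adult globins would then be uncertain too. The beta-like genes were distinct: Hbb-bh1 differed from Hbb-bs at 115 coding bases and Hbb-bh2 at 131, and Hbb-bs shared no coding run longer than 22 bases with either.

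Library totals ran from 169359 counts (KO Input replicate 3) to 710868 (KO IP replicate 2). Rpl3l itself had 83 to 125 counts in WT Input, 7 to 18 in KO Input, 156 to 182 in WT IP and 1 to 5 in KO IP, so every KO library lay below every WT library of its fraction. Of the 9 cardiomyocyte markers checked, Actc1 was listed at 0 in every library, and the summed level of the list was between 54988 and 66139 CPM (counts relative to library sizes scaled by the TMM method) in all 12. After a filter on low counts 6596 genes were tested, 7 of the 9 members among them; Hbb-bh1 and Slc4a1 did not pass it.

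The 4 adult globin genes made up from 1.70% to 17.2% of all counts in a library, a 10.1-fold range, and most of that range lay between libraries of the same group. In WT Input the share was 5.70%, 1.74% and 13.8% in replicates 1, 2 and 3. In KO Input it was 3.80%, 4.26% and 1.74%. In WT IP it was 5.80%, 17.2% and 2.36%, and in KO IP 6.97%, 3.04% and 1.70%. One WT library in each fraction stood apart, Input replicate 3 and IP replicate 2, and the lowest library of every group was between 1.70% and 2.36%, so all 4 groups overlapped. The highest share was 7.94 times the lowest in WT Input, 7.31 times in WT IP, 4.10 times in KO IP and 2.45 times in KO Input. Exact (Clopper-Pearson) 95% intervals were narrow beside these gaps (17.1% to 17.3% for WT IP replicate 2), and they cover counting error only. In bulk samples a larger share may mean more red cells or more globin RNA per red cell, and these cannot be told apart.

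**Figure D1:**
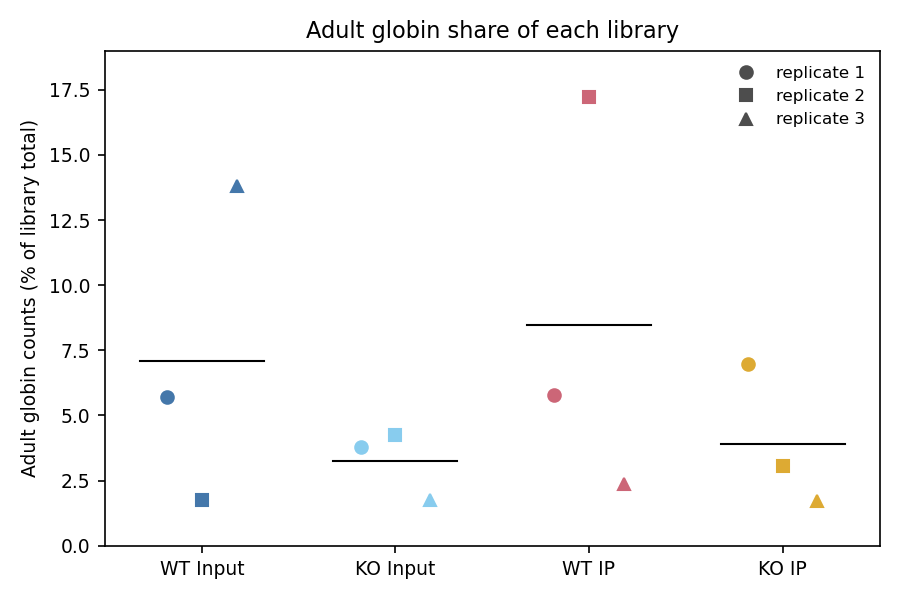
Share of each library's counts (percent) taken by Hba-a1, Hba-a2, Hbb-bs and Hbb-bt, by group; points are libraries with exact 95% intervals, most of them smaller than the point, and black lines are group means. WT Input replicate 3 (13.8%) and WT IP replicate 2 (17.2%) lie above the other 10 libraries, which are all at 6.97% or lower.

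Group means of the share were 7.08% ± 6.15 in WT Input and 3.27% ± 1.34 in KO Input (SD, n = 3 each), and 8.46% ± 7.79 in WT IP and 3.90% ± 2.74 in KO IP. Without the highest WT library of the fraction, the WT mean was 3.72% in Input and 4.08% in IP. The difference between the genotypes' means was therefore smaller than the spread within WT, and 1 library in each fraction held most of it.

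The same pattern held for each adult globin gene. Hbb-bs, the most abundant, stood at 29061, 9457 and 81788 CPM in WT Input and at 19924, 22237 and 7927 CPM in KO Input. In IP it stood at 32178, 108861 and 12017 CPM in WT and at 36667, 14766 and 8497 CPM in KO. The lowest WT library lay below the highest KO library in both fractions. The log2 fold change of Hbb-bs, KO against WT, was -1.26 in Input (SE 0.62, adjusted p = 0.693) and -1.35 in IP (SE 0.62, adjusted p = 0.943) in edgeR's quasi-likelihood test with Benjamini-Hochberg adjustment over all tested genes.

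Hbb-bt had log2 fold changes of -1.005 in Input (adjusted p = 0.774) and -1.40 in IP (adjusted p = 0.920). Hba-a1 had -1.22 and -1.17, and Hba-a2 -1.19 and -1.13, all 4 with an adjusted p of 0.721 or higher. Without WT Input replicate 3 and WT IP replicate 2, the 4 adult globins had log2 fold changes between -0.25 (Hba-a1) and 0.04 (Hbb-bt) in Input, and between -0.16 (Hbb-bs) and 0.07 (Hba-a2) in IP, a setting chosen after the data were seen.

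Of the 7 members tested, edgeR called 0 as different between KO and WT in Input, where 0.182% of all tested genes were called, and 0 in IP, where 0.091% were. At an unadjusted p under 0.05, 0 members passed in Input and 3 in IP (Hbb-bs, Hbb-bt and Bpgm), against 7.11% and 5.2% of all tested genes. DESeq2 and limma-voom also called 0 members in both fractions. Left without a count filter, edgeR called 4 members in Input and 6 in IP, where it called 77 and 55 of 16598 genes. The members' median log2 fold change was -1.19 in Input and -1.17 in IP, against -0.01 and 0.00 over all tested genes, and the members are not independent of one another, since most of them were highest in the same globin-rich libraries.

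Between the fractions no adult globin gene was called in either genotype, and the standard errors were too wide to exclude a sizeable change. In WT, the log2 fold change of IP against Input was 0.01 (SE 0.62) for Hba-a1, 0.03 (SE 0.60) for Hba-a2, 0.35 (SE 0.61) for Hbb-bs and 0.14 (SE 0.62) for Hbb-bt, with adjusted p values of 0.760 or higher. In KO it was 0.06, 0.09, 0.26 and -0.25 for the same genes, with adjusted p values of 0.823 or higher. For comparison, myoglobin (Mb), the heart muscle's own oxygen-binding globin, fell by 1.51 on the log2 scale in WT (SE 0.25, adjusted p = 0.000139) and by 1.38 in KO (SE 0.25, adjusted p = 0.000363). The direction of the WT values rests on single libraries: without WT IP replicate 2 all 4 adult globins were lower in IP (Hbb-bs -0.85, Hba-a1 -1.22), and without WT Input replicate 3 all 4 were higher (Hbb-bs 1.40, Hba-a1 0.97). The same replicate number did not mark globin-rich libraries in both fractions, since number 3 was the highest of WT Input and the lowest of WT IP.

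Ratios between globin genes within a library do not depend on how much blood RNA the library holds, and these were far steadier than the share itself. Alpha-globins made up 44.2%, 37.6% and 40.4% of adult globin counts in WT Input and 40.4%, 41.6% and 42.6% in KO Input. They made up 35.4%, 36.3% and 37.9% in WT IP and 40.4%, 38.0% and 38.9% in KO IP. The mean was 41.1% ± 2.26 in Input and 37.8% ± 1.77 in IP (SD, n = 6 each), a difference of -3.29 percentage points that was larger in WT (-4.15) than in KO (-2.43), although that contrast was not tested. Fractions overlapped, and an exact two-sided permutation test within genotype gave p = 0.02, or 0.06 after adjustment over the 12 ratio tests.

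The adult beta pair gave the sharpest split. Hbb-bt made up 17.3%, 17.0% and 17.1% of Hbb-bs plus Hbb-bt counts in WT Input and 20.6%, 19.9% and 17.3% in KO Input. In IP it made up 14.4%, 15.4% and 15.0% in WT and 14.7%, 15.7% and 13.6% in KO. All 6 IP libraries lay below all 6 Input libraries, with means of 14.8% ± 0.74 and 18.2% ± 1.61 (SD, n = 6 each). The difference was -3.39 percentage points, with an exact permutation p of 0.005, the smallest that the 400 permutations allow, and an adjusted p of 0.06. The adjusted exact p was between 0.02 and 0.048 without WT Input replicate 1 or 2, KO Input replicate 1 or 3, or KO IP replicate 1. The adjustment ranks the ratio tests together, so it also moves with the p values of the other ratios. On counts summed over the libraries of a group the difference was -3.52 points with an adjusted exact p of 0.03. Per kilobase of transcript, Hbb-bs stood 5.07 ± 0.52 times above Hbb-bt in Input and 6.46 ± 0.39 times in IP (SD, n = 6 each). Whether counts scale with transcript length in these nanopore libraries was not tested, so the size of these 2 ratios is uncertain. The pair's counts are those whose split between near-identical copies is uncertain, and the part of that split in the difference was not tested.

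Hba-a2 made up a near-constant share of the alpha pair, between 43.7% and 46.8% in all 12 libraries. Its mean was 44.7% in both fractions (SD 1.29 in Input and 0.46 in IP, n = 6 each), a difference of -0.06 points (exact permutation p = 0.915). No ratio between members passed the test between KO and WT after adjustment: for the alpha share the difference was 1.67 points, for the Hba-a2 share 0.35 points and for the Hbb-bt share 0.94 points, with adjusted exact p values of 0.283, 0.551 and 0.32. Without WT Input replicate 1 the adjusted exact p of the alpha share difference was 0.045 (2.54 points).

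**Figure D2:**
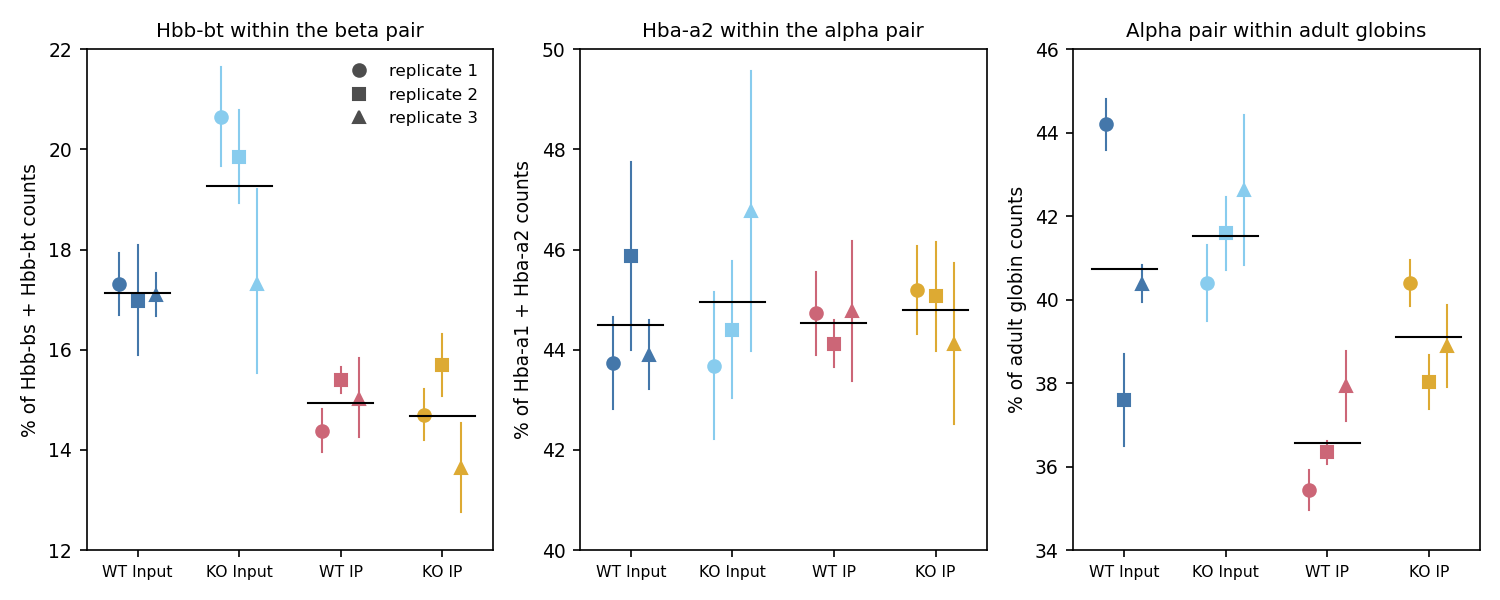
Shares within the adult globins in each library (percent of counts), by group: Hbb-bt among the adult beta pair, Hba-a2 among the alpha pair, and alpha-globins among all adult globins; points are libraries with exact 95% intervals. Every IP library is below every Input library in the Hbb-bt panel (13.6% to 15.7% against 17.0% to 20.6%), and the Hba-a2 panel shows no such step.

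The beta-like globins Hbb-bh1 and Hbb-bh2 were found almost only in the IP libraries. Hbb-bh1 is an embryonic beta-like gene, and Hbb-bh2 lies between it and the adult Hbb-bs. Hbb-bh2 had 45, 115 and 18 counts in WT IP and 49, 23 and 6 in KO IP. In Input it had 0, 1 and 0 counts in WT and 0 in all 3 KO libraries. Hbb-bh1 had 18, 43 and 10 counts in WT IP and 7, 15 and 4 in KO IP, against 0, 1 and 1 in WT Input and 0 in all 3 KO Input libraries. For both genes every IP library was above every Input library, in either genotype.

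Counts of both genes were also set beside those of Hbb-bs in the same libraries. Over all 6 IP libraries there were 256 Hbb-bh2 counts beside 124219 Hbb-bs counts, and over all 6 Input libraries 1 beside 52245. At the IP rate per Hbb-bs count, 108 Hbb-bh2 counts and 40.8 Hbb-bh1 counts would have been seen over the summed Input libraries, where 1 and 2 were. Single Input libraries varied in what they could show: in KO Input replicate 3, with 1395 Hbb-bs counts, a listed 0 allows up to 2.15 counts per 1000 Hbb-bs counts, and in WT Input replicate 3 a listed 0 of Hbb-bh2 allows up to 0.123. In WT, Hbb-bh2 was 108-fold higher in IP relative to library size (178 against 1 count, exact 95% interval 19.1 to 4273), and Hbb-bh1 21.5-fold (71 against 2 counts, 5.73 to 181). In KO, with 0 counts in Input, Hbb-bh2 was at least 10.1-fold higher (78 counts) and Hbb-bh1 at least 3.37-fold higher (26 counts), taking 3 counts over the Input group as the floor.

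In edgeR the adjusted p of Hbb-bh2 for IP against Input was 0.000521 in WT and 0.0134 in KO, where 14% and 16.4% of all tested genes were called. Hbb-bh2 passed the count filter only through its IP libraries, so this is a description and adds no support. With limma-voom its adjusted p was 0.156 in WT and 0.35 in KO. The KO call of Hbb-bh2 was also lost without KO Input replicate 1 (adjusted p = 0.0555) or replicate 2 (0.0624), and in KO it was not tested in a fit on only the compared libraries.

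Within the IP libraries Hbb-bh2 followed the adult genes. It had 2.14 ± 0.67 counts per 1000 Hbb-bs counts over the 6 libraries (SD), with a range of 1.17 to 3.12, and Hbb-bh1 had 0.92 ± 0.39, with a range of 0.45 to 1.47. The ranges of the genotypes overlapped for both: Hbb-bh2 was at 2.17 ± 0.42 in WT IP and 2.11 ± 0.97 in KO IP (SD, n = 3 each). The embryonic beta-like gene Hbb-y, which is outside the 9 genes, had 8, 20 and 2 counts in WT IP and 3, 6 and 3 in KO IP, against 1 count over all 6 Input libraries. The embryonic alpha-like gene Hba-x had 6 counts over the 6 IP libraries and 0 in Input. Ratios to Hbb-bs were chosen after the values were seen.

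**Figure D3:**
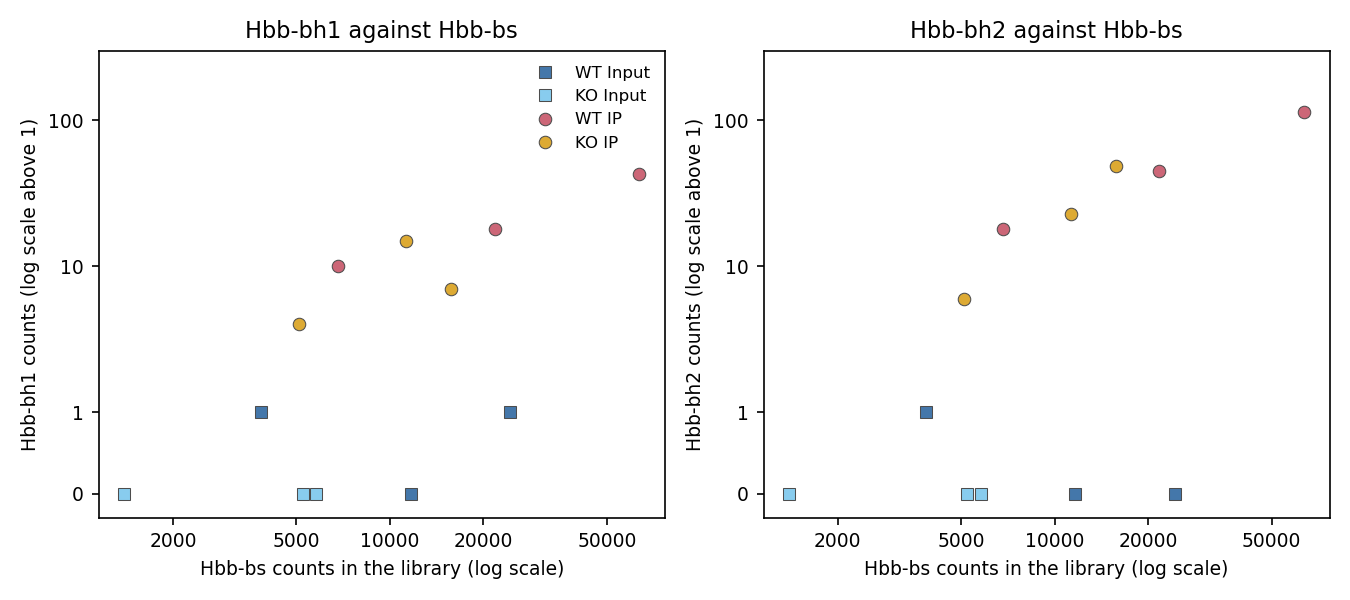
Counts of Hbb-bh1 and Hbb-bh2 in each library (y axis, linear near 0 and logarithmic above) against the library's Hbb-bs counts (x axis, logarithmic), by group. The IP libraries have 4 to 43 counts of Hbb-bh1 and 6 to 115 of Hbb-bh2, and the Input libraries 0 or 1 of either; WT IP replicate 2, with the highest counts, has 63543 Hbb-bs counts, more than any Input library (at most 24351).

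Alas2, the erythroid heme synthesis enzyme, had 44, 10 and 71 counts in WT Input and 29, 25 and 2 in KO Input. It had 89, 275 and 25 counts in WT IP and 75, 93 and 33 in KO IP. The libraries with most Alas2 were the globin-rich ones, WT Input replicate 3 at 238 CPM and WT IP replicate 2 at 471 CPM, and KO Input replicate 3 had the least, 11.4 CPM. Its log2 fold change, KO against WT, was -0.60 in Input (SE 0.74, adjusted p = 0.909) and -0.91 in IP (SE 0.56, adjusted p = 0.965). IP against Input gave 0.86 in WT (SE 0.59, adjusted p = 0.356) and 0.55 in KO (SE 0.71, adjusted p = 0.661).

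Per 1000 adult globin counts, Alas2 was at 1.51 ± 0.20 in WT Input, 1.78 ± 0.99 in KO Input, 2.18 ± 0.21 in WT IP and 3.38 ± 0.94 in KO IP (SD, n = 3 each). The 3 WT IP libraries were above the 3 WT Input libraries (1.93 to 2.33 against 1.35 to 1.74), while the KO fractions overlapped. Over both genotypes the difference between IP and Input was 1.13 (exact permutation p = 0.015, adjusted 0.06), and between KO and WT 0.73 (exact permutation p = 0.1, adjusted 0.2). Without KO Input replicate 3, which had 2 Alas2 counts, the genotype difference was 1.01 with an adjusted exact p of 0.02.

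Bpgm, the source of 2,3-bisphosphoglycerate, had 21, 11 and 30 counts in WT Input and 11, 13 and 6 in KO Input. It had 91, 258 and 36 counts in WT IP and 62, 50 and 32 in KO IP. On the CPM scale it was at 52.3, 27.1 and 101 in WT Input, 41.9, 50.1 and 34.1 in KO Input, 135, 442 and 63.4 in WT IP and 145, 65.4 and 53.2 in KO IP. WT IP replicate 3 lay below WT Input replicate 3, so the WT fractions overlapped, while the KO fractions did not.

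In WT, Bpgm was 3.69-fold higher in IP than in Input (log2 fold change 1.89, SE 0.51, adjusted p = 0.0127). In KO the log2 fold change was 0.97 (SE 0.64, adjusted p = 0.330), and the difference between the genotypes was -0.92 (SE 0.86, adjusted p = 0.887). The WT call was lost without WT IP replicate 2 (log2 fold change 0.80, adjusted p = 0.266), without WT Input replicate 1 or 2 (adjusted p = 0.0662 and 0.0910), with DESeq2 (0.0982) and with limma-voom (0.0572). Per 1000 adult globin counts Bpgm stood at 1.17 ± 0.52 in Input and 2.48 ± 0.48 in IP (SD, n = 6 each), a difference of 1.32 with an exact permutation p of 0.01 (adjusted 0.06). Its lowest IP library (2.01) and highest Input library (2.04) met. In each group this ratio was highest in the library with the lowest adult globin share. It was 1.49 in WT Input replicate 2, 2.04 in KO Input replicate 3, 2.78 in WT IP replicate 3 and 3.30 in KO IP replicate 3. The ratio thus varied with the globin share of the library, and why was not tested. KO against WT in IP, Bpgm had a log2 fold change of -1.34 (SE 0.45, unadjusted p = 0.0064, adjusted p = 0.797).

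**Figure D4:**
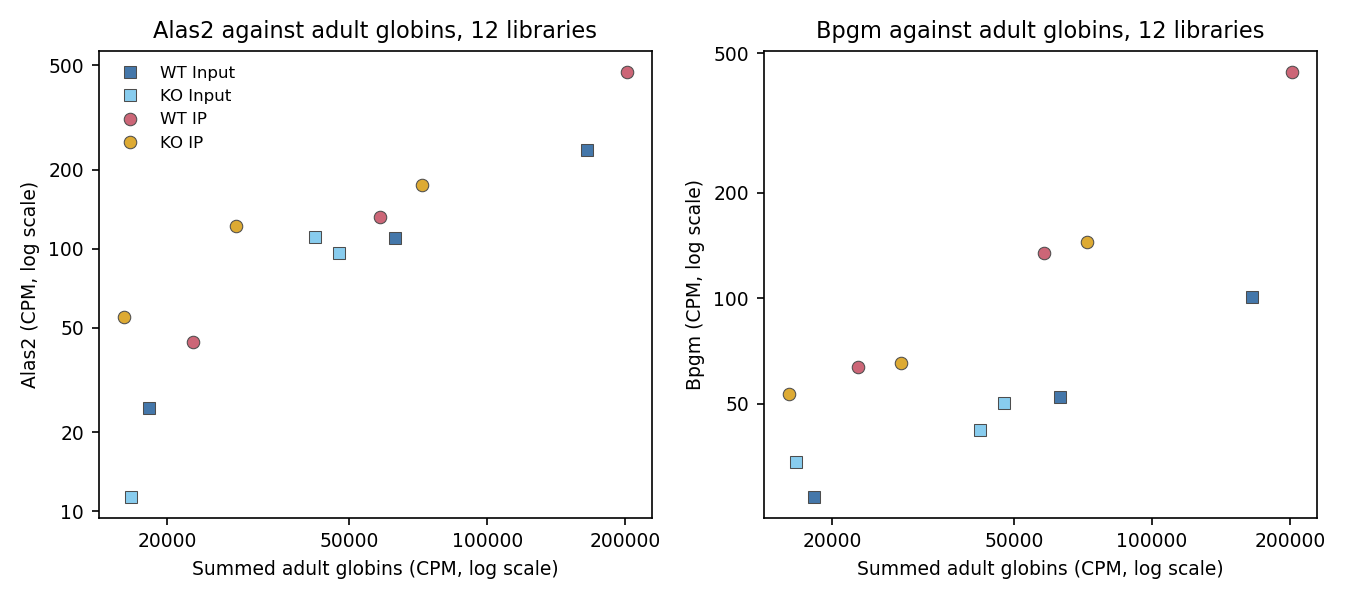
Alas2 and Bpgm levels against the summed level of the 4 adult globins in each library (CPM, both axes logarithmic), by group. The libraries with most adult globin have the highest levels of both genes in either fraction, and the Bpgm points of the IP libraries lie above those of Input libraries with similar globin (WT IP replicate 1 at 135 CPM against WT Input replicate 1 at 52.3 CPM).

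Slc4a1, the band 3 gene, was near the limit of detection. It had 1, 0 and 1 counts in WT Input, 1, 0 and 0 in KO Input, 4, 15 and 3 in WT IP and 2, 2 and 0 in KO IP. The WT IP libraries were above the WT Input and the KO IP libraries, at counts this low. Over all libraries there were 26 counts in IP and 3 in Input, a 4.31-fold difference relative to library size (exact 95% interval 1.32 to 22.3). The globin-rich WT IP replicate 2 held 15 of the 26. By genotype the difference was 6.65-fold in WT (22 against 2 counts, 1.63 to 58.3) and 1.56-fold in KO (4 against 1, 0.154 to 76.6). Per 1000 adult globin counts Slc4a1 was at 0.103 ± 0.077 in IP and 0.025 ± 0.036 in Input (SD, n = 6 each, exact permutation p = 0.05, adjusted 0.12).

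Of the 7 members tested, Hbb-bh2 and Bpgm were called between IP and Input in WT (2 of 7) and Hbb-bh2 in KO (1 of 7). Of all tested genes, 5.37% and 6.64% were called higher in IP. Hbb-bh2 passed the count filter only through its IP libraries, so these member counts are a description and not a test against those shares. Among all 9 members, IP libraries were all above Input libraries for 3 in WT (Hbb-bh1, Hbb-bh2 and Slc4a1) and 3 in KO (Hbb-bh1, Hbb-bh2 and Bpgm). Of the tested genes, 16.4% and 15.2% were so placed, but Hbb-bh1 and Slc4a1 did not pass the count filter and are outside those shares. Each Input library held 0 or 1 counts of Hbb-bh1, Hbb-bh2 and Slc4a1. KO and WT ranges did not overlap for 0 of 9 members in Input and for 1 of 9, Slc4a1, in IP. Of the tested genes, which exclude Slc4a1, 12.4% and 10.8% did not overlap. For the difference of the IP to Input ratio between KO and WT, edgeR called 0 of 7 members (0 at an unadjusted p under 0.05, which 7.02% of all tested genes passed, 0 by DESeq2 and 0 by limma-voom), where 0.091% of all tested genes were called.

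**Figure D5:**
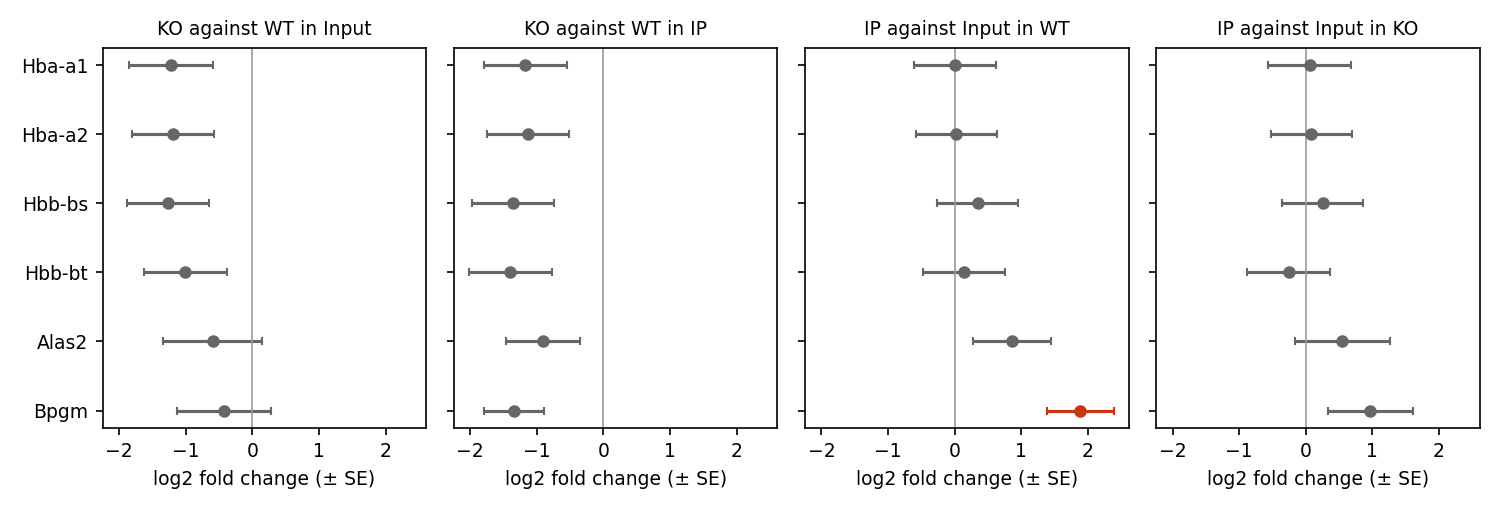
Log2 fold changes with standard errors of 6 members in 4 comparisons from edgeR; red marks an adjusted p under 0.05. Hbb-bh2, which was also tested and was called for IP against Input in WT and in KO, is not plotted. Among the 6 plotted members, Bpgm for IP against Input in WT (1.89) is the only red point. The bars of the adult globins span between 0.60 and 0.63 on either side of each estimate.

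Other genes of the red cell were read from lists in 6 roles. Of all tested genes, 0.182% were called between KO and WT in Input and 0.091% in IP. Between IP and Input, 14% were called in WT and 16.4% in KO. Of the other heme synthesis genes, 9 of 10 were tested and 0 differed between KO and WT in either fraction. In WT, Fech, which inserts iron into heme, and Alas1, the housekeeping counterpart of Alas2, rose in IP against Input (log2 fold changes 1.01 and 0.66, adjusted p = 0.00292 and 0.0274). In KO, Ppox, an enzyme of the last steps, fell by 2.89 on the log2 scale (adjusted p = 0.00315). Of 15 red cell membrane genes, 7 were tested, and Sptb, beta-spectrin, rose in IP in KO (1.15, adjusted p = 0.0119). Of 10 red cell enzyme and globin chaperone genes, 6 were tested, and Hk1, a hexokinase, rose in IP in WT (0.70, adjusted p = 0.0390) and KO (0.86, adjusted p = 0.0155); the globin chaperone Ahsp was not analysed here.

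Of 9 erythroid regulators and receptors, 2 were tested, and the transferrin receptor Tfrc rose in IP in WT (0.92, adjusted p = 0.0368) and not in KO (-0.76, adjusted p = 0.0797); the adjusted p of that difference was 0.247. Of 12 transcripts known from late reticulocytes, 10 were tested, and Tent5c, a poly(A) polymerase gene, rose in IP in WT (2.47, adjusted p = 0.00830). It was at 82.9, 295 and 37.0 CPM in WT IP, highest in the globin-rich replicate 2, against 29.9, 14.8 and 30.2 CPM in WT Input. In KO, 0 genes of this list were called between IP and Input. Of 7 genes of hemoglobin and heme clearance, 3 were tested and 0 were called. No gene of these 6 lists was called between KO and WT in either fraction, where 0.182% (Input) and 0.091% (IP) of all tested genes were. Many of the listed genes are also expressed outside red cells. By DESeq2 and limma-voom the calls of these lists were not recomputed.

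The genes most like the adult globins across the 12 libraries included known reticulocyte transcripts. Likeness was the Pearson r between a gene's log2 CPM and the log2 CPM of the summed adult globins, over 6020 tested genes with a mean of at least 20 CPM, and its median was 0.02. All genes of a library share its depth and scaling, so r is given as a description. Among the highest were Ube2l6 (a ubiquitin-conjugating enzyme) at 0.909, Arhgef2 at 0.852, Mkrn1 at 0.835 and Fam122a at 0.821. Without the 2 globin-rich libraries r was 0.799 for Ube2l6, 0.864 for Arhgef2, 0.537 for Mkrn1 and 0.605 for Fam122a. Ube2l6 ran from 11.6 CPM in KO IP replicate 3 to 154 CPM in WT IP replicate 2.

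After each group's mean was subtracted, the highest included Itgb1bp1 (0.944), Ifi27 (0.934), the mitochondrial iron importer Slc25a37 (0.92) and Rsad2 (0.907). Among the members outside the sum, r was 0.888 for Alas2, 0.789 for Bpgm, 0.722 for Slc4a1, 0.308 for Hbb-bh1 and 0.219 for Hbb-bh2. Within the 6 libraries of a fraction, Bpgm had 0.969 in Input and 0.989 in IP, and Hbb-bh2 had 0.960 in IP. Medians over the lists were 0.724 for late reticulocyte transcripts (10 genes, the lowest at -0.298) and 0.208 for heme synthesis (8 genes). The other red cell lists were at 0.301 for enzymes and globin chaperone (6 genes) and 0.119 for the membrane (6 genes). Erythroid regulators and receptors had 0.154 (2 genes), and hemoglobin and heme clearance -0.042 (3 genes). Monocyte and macrophage markers had 0.464 (5 genes, with Lyz2 the highest at 0.652), and cardiomyocyte markers -0.106 (8 genes).

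Markers of other blood cells were measured in the same libraries, and their part in the globin differences was not tested. Summed over 9 neutrophil markers, levels were 17.4 to 80.6 CPM in WT Input, 15.4 to 22.8 in KO Input, 10.6 to 46.3 in WT IP and 11.8 to 170 in KO IP. Over 8 platelet markers they were 110 to 212 CPM in WT Input, 62.5 to 150 in KO Input, 66.9 to 149 in WT IP and 71.9 to 128 in KO IP. Summed B cell markers reached at most 40.3 CPM and T and NK cell markers 14.0 CPM, with Igkc, Ighm, Ms4a1, Cd3e and Trbc2 listed at 0 in every library. Of the platelet markers only Pf4 was frequent enough for the likeness measure, with r = 0.731. The 8 monocyte and macrophage markers summed to 483 to 890 CPM in Input and 610 to 827 CPM in IP.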

How the data were processed

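RNA was measured by nanopore direct cDNA sequencing in 12 libraries. Per the submitters' processing notes, minimap2 2.14, DESeq2 1.34.0 and the GRCm38 build were used; their order and the counting rule were not stated there. The deposited files hold 1 whole-number count per gene, which the authors made from their reads. IDs were matched to GENCODE M21 without version (55141 of 55401), which supplied names, coordinates and transcript sequences; 38803 IDs were at 0 everywhere. The members and lists were chosen with earlier results of these data known. Named genes were the 9 members, list genes past the threshold, the genes most like adult globin and Rpl3l; a gene that this rule names is not reported here.

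Counts were tested in edgeR 4.0.16 (limma 3.58.1, R 4.3.3): filterByExpr (minimum count 10, total 15), TMM scaling and a quasi-likelihood fit of 4 group means to all 12 libraries, without a replicate block, in 5 contrasts. The threshold was an adjusted p of 0.05 (Benjamini-Hochberg over 6596 genes). The fit was tested on simulated data. DESeq2 1.42.0, limma-voom, other scalings and filters, a replicate block and left-out libraries were alternatives. Ratios of members were compared by exact two-sided permutation of libraries within genotype or fraction (12 tests). Library totals of 169359 to 710868 set the precision; a listed 0 allows 3 counts. Intervals are 95% and cover counting error only, as reads carried no molecular identifiers that the labels name. Transcript lengths are those of the longest protein-coding transcript.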

Additional observations from a re-analysis of the deposited data

How the results depend on the processing

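Without a count filter, edgeR called 4 members for KO against WT in Input and 6 in IP, against 0 and 0. For IP against Input it called 4 in WT and 3 in KO, against 2 and 1. Of 16598 genes it then called 77 for KO against WT in Input, 55 in IP and 1068 for IP against Input in WT. The cause was not tested. For IP against Input, DESeq2 called 1 member in WT, limma-voom 0 in WT and 0 in KO, and a fit on only the compared libraries 0 in KO. Leaving out each library in turn, or both globin-rich libraries together, gave 1 to 3 called members in WT and 0 to 2 in KO, and 0 in each KO against WT comparison and for the difference between genotypes.

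Signs of uncalled log2 fold changes reversed in places. For IP against Input in WT, the filter of 30 counts in 3 libraries gave Hba-a1 -0.060 and Hba-a2 -0.041, and in KO limma-voom gave -0.17 and -0.18. With the replicate number as a block they were -0.44 and -0.40, with Hbb-bs -0.11 and Hbb-bt -0.40, all in WT. After group means were subtracted, same-numbered libraries correlated between -0.09 and 0.02 over 18 pairs. The same number was the closest match in 1 of 18. Counting noise at these library totals could hide a pairing, so the correlations cannot decide whether same-numbered libraries share a heart. The labels do not say. The block moved no count of called members by over 1.5 times.

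With libraries left out, log2 fold changes for KO against WT in Input ran from -1.47 to 0.042 for Hbb-bt, -1.12 to 0.22 for Alas2 and -0.80 to 0.11 for Bpgm. In IP they ran from -2.02 to 0.053 for Hba-a1, -1.99 to 0.069 for Hba-a2 and -1.38 to 0.36 for Alas2. For IP against Input in WT they ran from -1.22 to 0.97 for Hba-a1, -1.18 to 0.98 for Hba-a2, -0.85 to 1.40 for Hbb-bs, -1.13 to 1.18 for Hbb-bt and -0.40 to 1.67 for Alas2. In KO they ran from -0.78 to 0.44 for Hba-a1, -0.76 to 0.48 for Hba-a2, -0.51 to 0.64 for Hbb-bs and -0.999 to 0.15 for Hbb-bt.

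Ratios kept their direction except the Hba-a2 share, which was 0.46 points higher in IP on summed counts; summed counts also gave an adjusted exact p of 0.03 for the Hbb-bt share (-3.52 points) and for Bpgm (1.34 per 1000). With libraries left out, IP minus Input ran from -4.07 to -2.42 points for the alpha share, -0.38 to 0.40 for the Hba-a2 share, -3.88 to -3.05 for the Hbb-bt share, and per 1000 adult globin counts 0.86 to 1.37 for Alas2, 1.12 to 1.48 for Bpgm and 0.058 to 0.093 for Slc4a1. The adjusted exact p of IP minus Input then passed 0.05 in 3 of 12 settings for the alpha share (lowest 0.04), 5 for the Hbb-bt share (0.02), 3 for Alas2 (0.04), 5 for Bpgm (0.02) and 1 for Slc4a1 (0.048), each time without WT Input replicate 1 or 2, KO Input replicate 1 or 3, or KO IP replicate 1. KO minus WT ran from 0.89 to 2.54 points for the alpha share, -0.10 to 0.69 for the Hba-a2 share and 0.50 to 1.01 per 1000 for Alas2. Depth limits Slc4a1 in Input and the single Input libraries of Hbb-bh1 and Hbb-bh2, where a library held 0 or 1 counts.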
